A study of Mus musculus with 8 samples.

Results

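Calcium pumps, sodium calcium exchangers and intracellular release channels were examined in nuclear RNA of mouse hippocampal place cells. The set held 10 genes, selected on their role by name, with earlier levels and differences of the same Day 0 and Recurring libraries in view, and all 10 were among the 15519 genes of the deposited table. They are the plasma membrane pumps Atp2b1, Atp2b2 and Atp2b4, the endoplasmic reticulum pump Atp2a2, the exchangers Slc8a1 and Slc8a2, the IP3 receptors Itpr1 and Itpr2, and the ryanodine receptors Ryr2 and Ryr3. Place cells are hippocampal neurons that fire at particular locations. Here pyramidal cells of wild-type (WT) mice were imaged in vivo with 2-photon microscopy during navigation, and the nuclei of chosen cells were tagged with light and collected. The labels name a group of Day 0 and a group of Recurring place cells, with 4 libraries each, and do not define either class further, nor do they give age, sex or batch. Each title carries a mouse number of its own, and the labels do not say more about whether libraries came from separate animals, so errors below are the spread between libraries.

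Calcium that enters a neuron during firing is removed by several routes. Plasma membrane calcium ATPases (PMCA) use ATP to expel it with high affinity, whereas sodium calcium exchangers (NCX) use the sodium gradient and carry more calcium at high loads. The sarcoplasmic and endoplasmic reticulum pump SERCA returns calcium to the store inside the endoplasmic reticulum. The store releases it again through IP3 receptors, opened by the messenger IP3 together with calcium, and through ryanodine receptors, opened by calcium itself.

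The libraries held 8374986 to 14887866 reads in genes. All 14 CA1 pyramidal markers examined were in the table, and their mean level lay between 9.60 and 10.66 on the log2(normalized count + 1) scale over the 8 libraries. A normalized count is the number of reads of a gene divided by a size factor of its library. Markers of other cells varied more. Their mean levels were higher in Recurring cells for most types and lower for oligodendrocyte and endothelial markers only. The 11 of 13 interneuron markers in the table averaged 3.20 to 7.33 in Day 0 and 4.55 to 9.17 in Recurring cells, highest in Recurring replicate 2. The 12 of 13 astrocyte markers averaged 3.60 to 6.39 and 5.16 to 8.72, highest in Recurring replicate 1. The 5 of 9 microglia markers averaged 1.55 to 4.64 and 3.45 to 9.93, highest in Recurring replicate 4, where none of them was at 0. As mean ± SD of Day 0 and of Recurring libraries (n = 4), interneuron markers stood at 5.04 ± 1.74 and 6.59 ± 1.94. Astrocyte markers stood at 5.05 ± 1.14 and 6.62 ± 1.65, and microglia markers at 3.10 ± 1.27 and 6.41 ± 2.74. The 9 of 10 oligodendrocyte markers averaged 6.36 ± 2.12 in Day 0 and 5.58 ± 1.70 (SD, n = 4) in Recurring libraries, and the 6 of 7 endothelial markers 2.72 ± 0.83 and 2.62 ± 1.39. The 3 of 6 oligodendrocyte precursor markers averaged 4.80 and 6.14, the 5 of 8 dentate granule markers 4.99 and 5.86, and the 6 of 7 CA3 pyramidal markers 5.49 and 6.52. Dentate granule and endothelial markers were also highest in Recurring replicate 2. In such bulk libraries, fewer cells of a type and less RNA per cell cannot be told apart.

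The plasma membrane pumps spanned the widest range of levels in the set. Atp2b1 was the most and Atp2b4 the least read of them, and the sequences around their starts are shown for that reason, as RefSeq gives them on GRCm38.p6, from 250 bases before to 50 bases after the start. The deposited values were made on GRCm39, so these positions serve only the sequences. Capitals mark the GC box GGGCGG and the E-box CACGTG, searched on both strands, with overlapping GC boxes run together.
Atp2b1, chr10:98914392-98914691, plus strand: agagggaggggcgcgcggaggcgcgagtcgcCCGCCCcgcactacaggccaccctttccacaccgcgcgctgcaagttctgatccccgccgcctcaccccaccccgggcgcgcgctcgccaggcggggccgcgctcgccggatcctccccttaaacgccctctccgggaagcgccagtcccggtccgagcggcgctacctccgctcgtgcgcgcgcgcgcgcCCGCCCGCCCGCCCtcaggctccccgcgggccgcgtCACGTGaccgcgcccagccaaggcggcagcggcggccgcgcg
Atp2b4, chr1:133753698-133753997, minus strand: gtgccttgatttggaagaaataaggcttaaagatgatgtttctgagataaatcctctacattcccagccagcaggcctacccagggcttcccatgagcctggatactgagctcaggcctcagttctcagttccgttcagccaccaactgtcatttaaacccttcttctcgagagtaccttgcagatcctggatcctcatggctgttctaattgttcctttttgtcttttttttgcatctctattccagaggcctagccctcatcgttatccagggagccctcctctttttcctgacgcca
The Atp2b1 stretch held 54 CG pairs, at the 99.7 percentile of the 32851 promoters in the RefSeq table, with 79.3% G and C, 4 GC boxes and 1 E-box. The Atp2b4 stretch held 4 CG pairs, at the 31.4 percentile, with 47.7% G and C and neither motif. A GC box occurred in 35.7% and this E-box in 7.15% of all promoters in that table. The table matched 7 of the 10 genes, with 10 promoters, and none of these held the TATA box core TATAAA (13.6% of all promoters) or the cAMP response element TGACGTCA (1.79%). The second Atp2b1 start also lay in CG-rich sequence, with 45 CG pairs. Of the other genes, Itpr2 held 26 CG pairs and 5 GC boxes, Ryr2 18 and 2, Slc8a2 10 and 1, and Slc8a1 9 and 0. The Atp2b2 starts held 27, 12 and 8 CG pairs, with 3, 2 and 0 GC boxes. Whether such sequence goes with level was not tested.

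Atp2b1 encodes PMCA1, a pump present in most tissues. Its normalized counts in Day 0 replicates 1 to 4 were 49305, 37364, 50065 and 66926. In Recurring replicates 1 to 4 they were 35409, 43147, 47181 and 66188. The groups overlapped almost fully, and the highest library of each stood at nearly the same count. The difference, Recurring minus Day 0, was -0.09 log2 units (SE 0.21, 95% interval -0.54 to 0.36), a fold between 0.687 and 1.28. Atp2b1 alone took 0.384% to 0.699% of all reads in a library and ranked 4 to 6 among all genes by reads, without regard to gene length. Its spread within groups, a residual SD of 0.36 log2 units, was below the median of 0.63 for the 1107 tested genes with the highest means.

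Atp2b2, which encodes PMCA2, a fast pump of neurons and hair cells, had counts of 4754, 5830, 3144 and 4895 in Day 0. In Recurring cells it had 7721, 6907, 5031 and 8083. Recurring replicates 1, 2 and 4 lay above every Day 0 library, and Recurring replicate 3 lay below Day 0 replicate 2, so the groups overlapped. The difference was 0.59 (SE 0.32, 95% interval -0.08 to 1.26), which includes 0, and it stayed between 0.41 and 0.73 when single libraries were left out.

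Atp2b4, which encodes PMCA4, was sparse. Its reads were 22, 1, 0 and 1 in Day 0 and 60, 0, 137 and 554 in Recurring cells. Recurring replicate 4 held most of them, and Recurring replicate 2 held none, as did Day 0 replicate 3. The fitted difference of 3.90 (SE 2.22, 95% interval -0.78 to 8.59) depends on the added 1 for libraries at or near 0. Its size cannot be read as a fold. Recurring replicate 4 was also the library with the highest microglia marker level. Its oligodendrocyte markers, at 8.06, and oligodendrocyte precursor markers, at 7.46, were near their highest levels of 8.11 and 7.67. The part of any of these cell types in the Atp2b4 count was not tested.

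Shares within a family need no size factor, since all its genes come from the same library. They were taken over every gene of the family in the table, which adds Atp2b3, Slc8a3, Ryr1 and Itpr3 to the set. Of all PMCA reads, Atp2b1 took 90.7% ± 3.27 (SD, n = 4) in Day 0 cells and 86.3% ± 3.56 in Recurring cells. Atp2b2 took 8.71% ± 3.38 and 13.0% ± 3.66, and its ranges, 5.86% to 13.5% and 9.55% to 17.8%, overlapped. Atp2b3, which encodes PMCA3, took 0.138% to 0.953% over the 8 libraries, and Atp2b4 at most 0.748%. Of the 44527 reads of Atp2b1, Atp2b2 and Atp2b4 together in Day 0 replicate 3, 0 were of Atp2b4. A count of 0 is taken to allow up to 3 reads, here a share of 0.00674%, and the 95% Clopper-Pearson upper bound is 0.00828%.

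**Figure D1:**
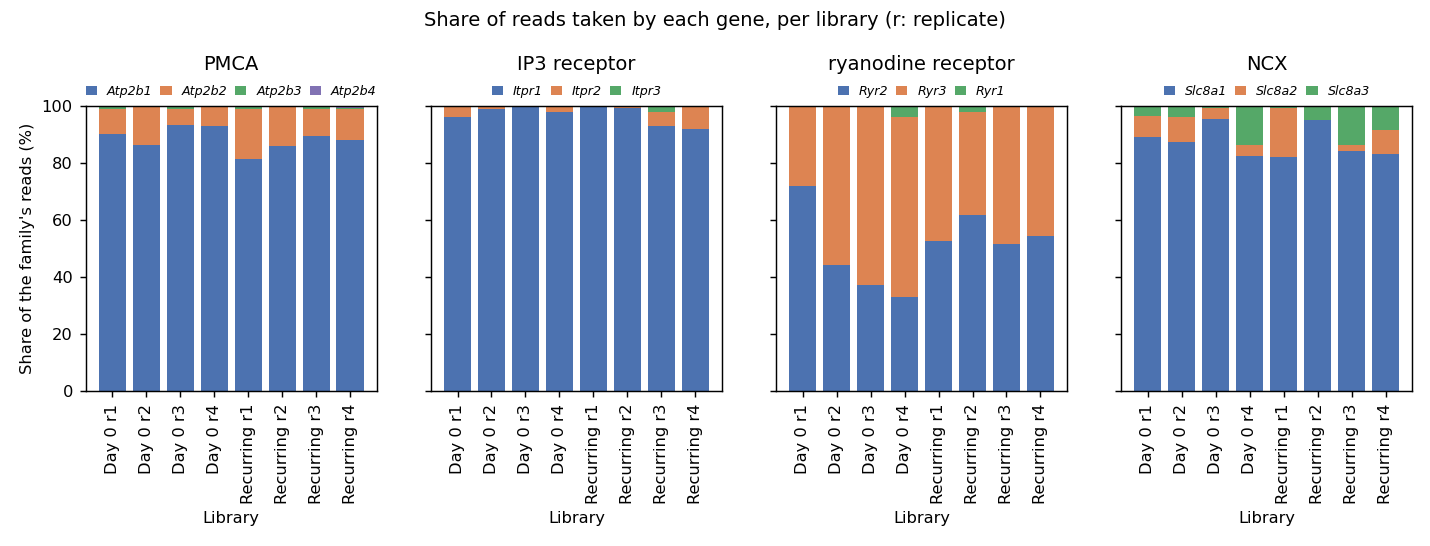
Share of a family's reads (percent, vertical axis from 0) taken by each gene in each of the 8 libraries, for all genes of the PMCA pumps, IP3 receptors, ryanodine receptors and sodium calcium exchangers in the table. Atp2b1, Itpr1 and Slc8a1 took most of their family's reads in every library, while Ryr2 and Ryr3 divided theirs, with Ryr2 between 32.9% and 72.1%.

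Atp2a2 encodes SERCA2, the main store pump of neurons. Its counts were 5144, 6314, 3103 and 9077 in Day 0 and 8121, 5417, 2076 and 5170 in Recurring cells. The lowest library was Recurring replicate 3 and the highest Day 0 replicate 4. The difference was -0.24 (SE 0.43, 95% interval -1.14 to 0.66), and it ran from -0.51 to 0.15 when single libraries were left out, with 0.15 without Recurring replicate 3. Its residual SD of 0.74 was the highest of the 7 genes of the set that fell among the 1107 genes with the highest means.

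The exchangers were led by Slc8a1, which encodes NCX1. Its counts were 4494, 2365, 3095 and 2705 in Day 0 and 2163, 6571, 2363 and 3302 in Recurring cells. Recurring replicate 2 stood highest and Recurring replicate 1 lowest, so the Recurring libraries enclosed all Day 0 libraries. The difference was 0.08 (SE 0.42, 95% interval -0.81 to 0.97), and it ran from -0.26, without Recurring replicate 2, to 0.27 when single libraries were left out. Recurring replicate 2 also had the highest interneuron, dentate granule and endothelial marker levels, whose part in the count was not tested.

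Slc8a2, which encodes NCX2, an exchanger of brain, had 366, 234, 131 and 126 in Day 0 and 451, 11, 60 and 336 in Recurring cells. Here Recurring replicate 2 was the lowest library, the reverse of its place for Slc8a1. The mean normalized count was 215 in both groups, with SDs of 113 and 213 (n = 4). On the log2 scale the difference was -0.92 (SE 1.58, 95% interval -4.25 to 2.42). It ran from -1.62, without Recurring replicate 1, to 0.11, without Recurring replicate 2, when single libraries were left out.

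Of all exchanger reads, Slc8a1 took 82.7% to 95.5% in Day 0 and 82.2% to 95.1% in Recurring cells, so the groups covered nearly the same range. The rest fell to different genes in different libraries. In Recurring replicate 1 Slc8a2 took 17.1% and Slc8a3, which encodes NCX3, took 0.636%. In Recurring replicate 3 Slc8a3 took 13.7% (95% Clopper-Pearson interval 12.4 to 15.0) and Slc8a2 took 2.15%, and Day 0 replicate 4 was alike, at 13.4% and 3.86%. Such intervals on shares cover counting error only.

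Itpr1 encodes the main IP3 receptor of neurons. Its counts were 3619, 2404, 5849 and 7178 in Day 0 and 4607, 3134, 3796 and 3388 in Recurring cells. The Recurring libraries fell inside the Day 0 range, with an SD of 0.24 log2 units against 0.71 in Day 0, a difference in spread that was not tested. The difference in level was -0.24 (SE 0.39, 95% interval -1.06 to 0.57).

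Itpr2, an IP3 receptor abundant in glia, was read little, at 198, 28, 0 and 136 reads in Day 0 and 7, 23, 198 and 291 reads in Recurring cells. It took at most 8.02% of IP3 receptor reads, in Recurring replicate 4. Recurring replicate 1, with the highest astrocyte marker level, had 7 of its reads, and Recurring replicate 4, with the highest microglia level, had the most. Whether either cell type contributed was not tested. The fitted difference was 0.94 (SE 2.42, 95% interval -4.17 to 6.06), and it ran from -0.63, without Day 0 replicate 3, to 2.03 when single libraries were left out.

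Ryr2 and Ryr3 encode ryanodine receptors, of which Ryr2 is also the release channel of heart. Ryr2 had counts of 7638, 4219, 5701 and 2943 in Day 0 and 5539, 4145, 4338 and 5576 in Recurring cells. The Recurring values again lay inside the Day 0 range, and the difference was 0.01 (SE 0.35, 95% interval -0.73 to 0.75). Ryr3 had 2938, 5277, 9557 and 5671 in Day 0 and 4914, 2445, 4020 and 4661 in Recurring cells. Its difference was -0.47 (SE 0.39, 95% interval -1.30 to 0.35). In the mouse annotation GENCODE vM21, 4.83% of Ryr3 exon bases are shared with Aven on the opposite strand, and whether reads were counted by strand is not given in the sources used here.

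The balance between these receptors differed between libraries by more than the error of counting reads. That error takes each read as independent, and the number of RNA molecules behind the reads is not given in the sources used here. Ryr2 took 72.1% of the reads of Ryr1, Ryr2 and Ryr3 in Day 0 replicate 1 (95% Clopper-Pearson interval 71.3 to 72.8) and 44.4%, 37.3% and 32.9% in Day 0 replicates 2 to 4. In Recurring replicates 1 to 4 it took 52.8%, 61.7%, 51.8% and 54.4%. Ryr1, the release channel of skeletal muscle, took 0.0594% to 3.70%. The other Day 0 libraries thus lay below every Recurring library and Day 0 replicate 1 above all of them, and the group means were 46.7% and 55.2%.

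**Figure D2:**
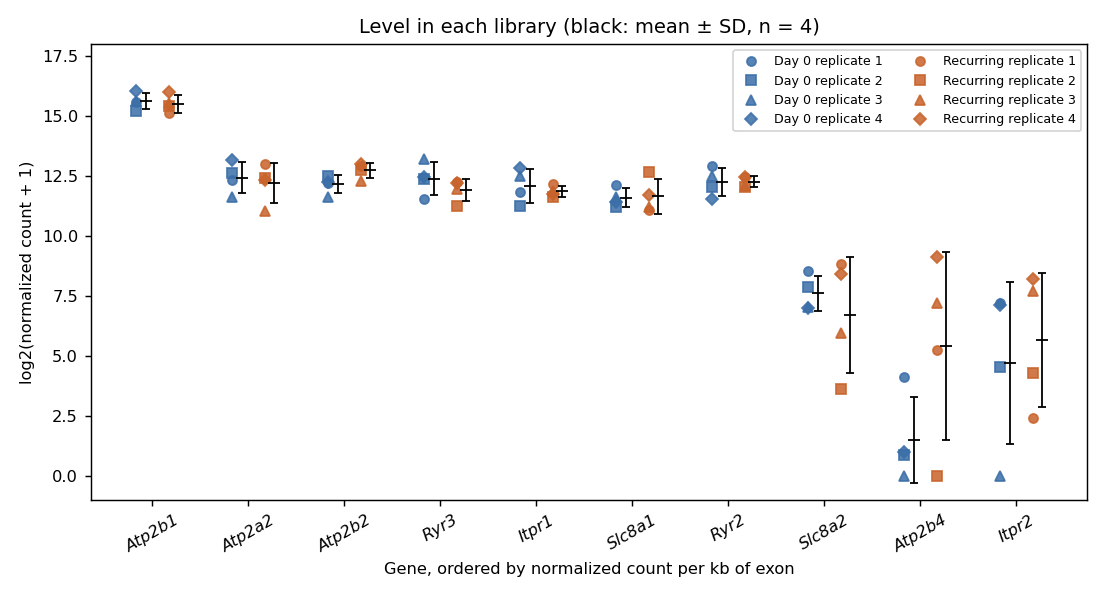
Level of each gene on the log2(normalized count + 1) scale (vertical axis) in each Day 0 (blue) and Recurring (orange) library, with marker shapes for replicates and black bars for the mean ± SD of 4 libraries. The groups overlap for all 10 genes, and the 3 genes on the right, Slc8a2, Atp2b4 and Itpr2, have the lowest levels and the widest spread.

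Levels of different genes were compared per length, as normalized counts per kilobase of exon, with exon lengths from GENCODE vM21. The order by mean was Atp2b1 (3249), Atp2a2 (913), Atp2b2 (460), Ryr3 (260), Itpr1 (232), Slc8a1 (180), Ryr2 (174), Slc8a2 (40.8), Atp2b4 (7.78) and Itpr2 (7.04). Atp2b1 exceeded Atp2a2 in 8 of 8 libraries, and it ranked 15 among 11283 protein-coding genes. Ryr3 exceeded Itpr1 in 5 of 8 and Itpr1 exceeded Slc8a1 in 6 of 8. Slc8a1 exceeded Ryr2 in only 2 of 8, and Atp2b4 exceeded Itpr2 in only 2 of 8, although each had the higher mean. The order of these neighbours thus varied between libraries, and their differences were not tested. The median coding gene stood at 63.1, below the 7 leading genes and above the other three. Whether reads in introns were counted is not given in the sources used here.

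Across all genes tested, limma called none between the groups at an adjusted p under 0.05 (0%, 0 of 11078), and 401 (3.62%) had an unadjusted p under 0.05. Of the set, limma called 0 of 10, with 0 at an unadjusted p under 0.05, and voom likewise gave 0 and 0, beside 0% and 4.68% of all tested genes. With a pseudocount of 10 the limma count at an unadjusted p under 0.05 was 1 of 10, beside 459 of 11078 tested genes. Without Recurring replicate 2 it was 1 of 10, beside 345 of 10465. The groups were free of overlap for 0 of 10 genes, beside 2.41% of all. The mean was higher in Recurring cells for 5 of 10, beside 50.1% of all. Since the set was named with this comparison known, these counts are a description. The median difference was -0.04 over the 10 genes and 0.00 over all tested genes.

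How large a difference the data leave room for varied with level. The 95% interval stayed within 1 log2 unit of 0 for Atp2b1, Ryr2 and Slc8a1, 3 of 10, beside 1.98% of all tested genes. All 3 were among the 7 genes of the set that fell in the 1107 genes with the highest means. Of those 1107 genes, 19.8% had such an interval. The count in the set ranged from 0 to 5 with the variance model and with single libraries left out. It was 1 without Day 0 replicate 1 and 5 without Day 0 replicate 4, and Atp2b1 met it in every setting tried except limma without a variance trend. At their upper ends the intervals of Slc8a2, Atp2b4 and Itpr2 reached 2.42, 8.59 and 6.06 log2 units.

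**Figure D3:**
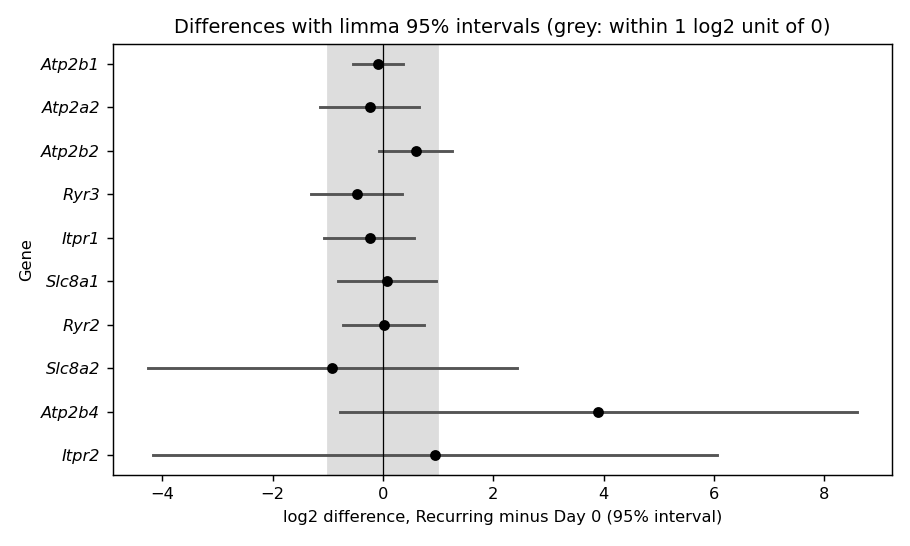
Difference in log2(normalized count + 1), Recurring minus Day 0 (horizontal axis), with limma's 95% interval, for the 10 genes ordered by level per kilobase. Every interval includes 0, and the grey band marks 1 log2 unit either side, which holds the intervals of Atp2b1, Ryr2 and Slc8a1.

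**Figure D4:**
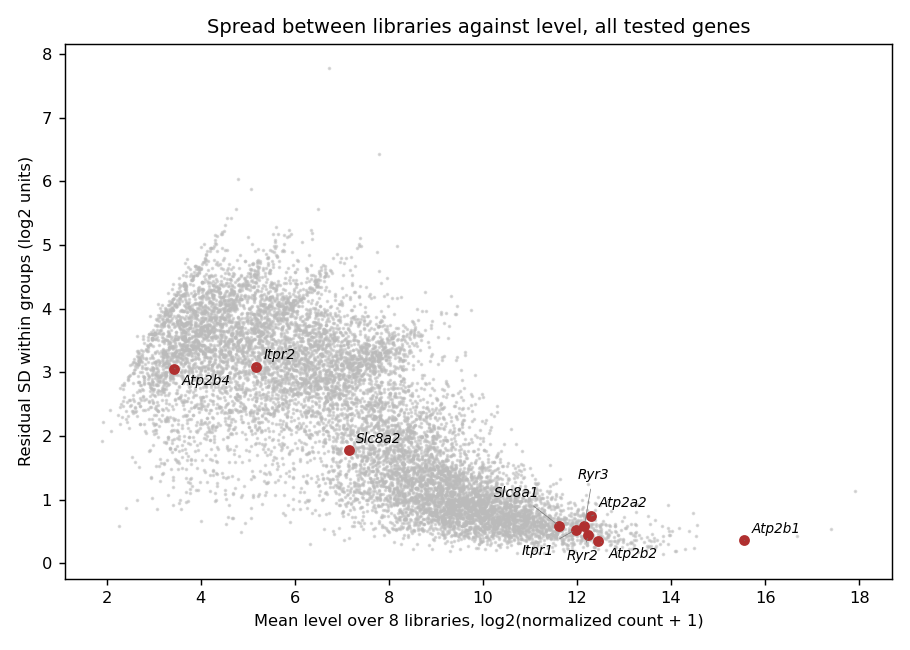
Residual SD within groups (log2 units, vertical axis) against mean level (log2(normalized count + 1), horizontal axis) for 11078 tested genes in grey and the 10 genes in red. The 7 well-read genes have residual SDs of 0.34 to 0.74, and Slc8a2, Atp2b4 and Itpr2 of 1.78 to 3.09.

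Whether the 8 genes read in every library varied together was examined over the 28 pairs. Pearson's r ran from -0.63 to 0.53 with a median of 0.01, and 0 pairs had an adjusted or unadjusted p under 0.05 by 2-sided exact permutation. The pair with the smallest p for r was Ryr3 and Slc8a1, with r = -0.63 (exact permutation p = 0.0995, Benjamini-Hochberg adjusted 0.914). Its Spearman's rho was -0.45 (exact permutation p = 0.267, adjusted 0.965). Without Day 0 replicate 3 and Recurring replicate 2 its r was -0.72. For rho the smallest p was that of Ryr2 and Slc8a2, with rho = 0.62 (exact permutation p = 0.115, adjusted 0.965). With trimmed-mean size factors the rho of Ryr2 and Slc8a2 was 0.74 (exact permutation p = 0.0458, adjusted 0.977). Itpr1 and Ryr3 had the highest r, 0.53 (exact permutation p = 0.174, adjusted 0.914), with rho = 0.55 (exact permutation p = 0.171, adjusted 0.965). Without Day 0 replicates 3 and 4, the libraries farthest from the Itpr1 median, its r was -0.03. Leaving them out narrows the range of Itpr1, so the lower r is given as a description.

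Among all tested genes, the one most alike to each in profile over the 8 libraries was Atxn10 for Atp2b1 (r = 0.96), Zfhx3 for Atp2b2 (0.96), Ing2 for Atp2a2 (0.95) and Bloc1s2 for Itpr1 (0.96). For the others it was Bcl11a for Ryr2 (0.96), Ctc1 for Ryr3 (0.97), Rps6 for Slc8a1 (0.91) and Atosb for Slc8a2 (0.98). Of these, Zfhx3 had a normalized count of 0 in Day 0 replicate 3, Ing2 in Recurring replicate 3 and Atosb in Recurring replicate 2. Each r is the highest of 11078 values over the same 8 libraries, and is given as a description.

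The wider machinery was followed in 72 further genes of store release, refilling and clearance, listed by role, of which 62 were in the table and 58 were tested. Limma and voom each called 0 of 58. At an unadjusted p under 0.05 there was 1 by limma and 3 by voom, beside 3.62% and 4.68% of all tested genes. The limma count was 0 on the deposited values as they stand, beside 372 of 11063 tested genes. Without a variance trend it was 0, beside 429 of 11078, and with a pseudocount of 10 it was 3, beside 459 of 11078. When single libraries were left out it was 1 to 4. It was 4 of 57 without Day 0 replicate 2, beside 428 of 10098 tested genes. Without Recurring replicate 1 it was 4 of 57, beside 435 of 10571, and without Day 0 replicate 3 it was 3 of 57, beside 363 of 10466. Of the 58, 30 had the higher mean in Recurring cells and 28 the lower, with a median difference of 0.03. The gene with the highest mean in each role is named here.

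The gene at an unadjusted p under 0.05 by limma was Atp2c1, which encodes the calcium and manganese pump of the Golgi. Its normalized counts were 2932, 3373, 3954 and 7047 in Day 0 and 2004, 3005, 1576 and 1330 in Recurring cells. Recurring replicate 2 lay above Day 0 replicate 1, so the groups overlapped in those libraries alone. The difference was -1.11 (SE 0.43, 95% interval -2.01 to -0.21), which did not pass after adjustment over all genes.

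Micu3, a brain-enriched regulator of the mitochondrial calcium uniporter, had 2004, 1383, 1703 and 2261 in Day 0 and 4349, 3733, 2433 and 2157 in Recurring cells. Recurring replicates 1 to 3 lay above every Day 0 library. Its difference of 0.75 (SE 0.42, 95% interval -0.14 to 1.64) included 0. The 9 mitochondrial genes tested had a median difference of -0.70, of the other sign, with 4 higher and 5 lower.

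Grm5, the metabotropic glutamate receptor that drives IP3 production, differed by -0.17 (SE 0.25, 95% interval -0.70 to 0.35), and 9 of the 14 genes of IP3 production and removal had the higher mean in Recurring cells. Nptn, neuroplastin, a subunit of PMCA complexes, differed by -0.27 (SE 0.26, 95% interval -0.82 to 0.28). The endoplasmic reticulum chaperone Canx differed by 0.06 (SE 0.39), and Grina, which interacts with IP3 receptors, by 0.23 (SE 0.34). Of 11 release channel partners, 4 were higher and 7 lower in mean.

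Saraf, an inhibitor of store-operated calcium entry, differed by -0.62 (SE 0.48, 95% interval -1.63 to 0.39). The lysosomal channel Mcoln1 differed by -0.01 (SE 0.70), and the potassium-dependent exchanger Slc24a2 by 0.05 (SE 0.39). None of these intervals excluded 0.

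**Figure D5:**
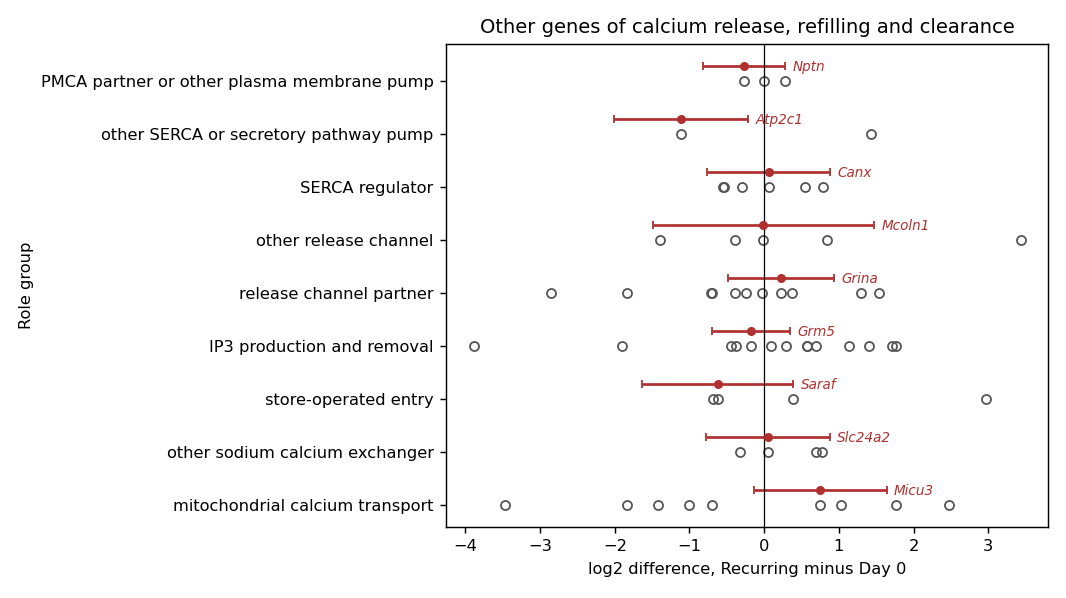
Difference in log2(normalized count + 1), Recurring minus Day 0 (horizontal axis), for the 58 tested genes of the wider machinery by role (open circles), with the gene of highest mean in each role in red with its limma 95% interval. The interval of Atp2c1, from -2.01 to -0.21, lies below 0, and those of the other named genes include 0.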

How the data were processed

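The deposited table holds, per the labels, signal values of nuclear RNA libraries made with a SMART-Seq mRNA LP kit. STAR, HTSeq and GRCm39 are named in the submitters' processing notes, with no versions or settings. In the authors' deposited signal table each gene's reads had been scaled by one factor of that gene, and library depth had not been corrected. The factors matched those of a trimmed-mean normalization applied across genes instead of across libraries, relative to Ptdss1. That reference gene came from an earlier analysis of these data, the relation was checked here, and the number of values trimmed was found by trying trims against the table. Undoing this scaling left 95910 of 95910 nonzero values within 0.1 read of a whole number, the farthest by 0.060.

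The plan had assumed depth-normalized values. Reads were therefore first divided by median-of-ratios size factors (0.837 to 1.61). Values were taken as log2(normalized count + 1), so differences of low genes depend on the added 1. The 11078 genes that reached a normalized count of 10 in 4 or more libraries entered the fit. Of these, 5056 had 0 reads in at least 1 library. Recurring was compared with Day 0 by limma 3.58.1 (R 4.3.3), using a variance trend, with Benjamini-Hochberg adjusted p under 0.05 as the threshold. The scripts were tested on simulated data. Intervals on shares are Clopper-Pearson, at 95%. The plan took shares over the genes of the set, and the shares over whole families were added after the data were seen. Exon lengths were found for 94.3% of genes.

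The 10 genes, the other gene lists and the marker lists were chosen with earlier results of these data known, so no p is given for any of the 10 between groups. Named genes are the 10, the tested gene with the highest mean in each role list, and the tested gene with the highest r to each of the 10 that was read in every library. Replicates were numbered in order of deposit. Alternatives were other size factors, the deposited values as they stand, another pseudocount, no filter, no variance trend, voom on the reads, and leaving out each library.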

Additional observations from a re-analysis of the deposited data

How the results depend on the processing

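The count of 0 genes called over all tested genes, and of 0 among the 10 genes and the wider list, held under trimmed-mean factors, the deposited values as they stand, a pseudocount of 10, no filter, voom, and without each library in turn. Without a variance trend limma called 2 genes, neither of them among the 10 or in the wider list, and the cause was not tested. Genes at an unadjusted p under 0.05 numbered 345 to 435 when single libraries were left out. Of 136 recomputed differences of the 10 genes, 15 had the other sign, and 0 moved by 1 SD or more. Leaving out 1 of the 4 libraries of a group cannot move its mean by 1 SD of that group. The 0 therefore says nothing about how stable the differences were in those fits. Without single libraries the differences of Itpr2 (-0.63 to 2.03), Slc8a2 (-1.62 to 0.11) and Atp2b4 (3.41 to 5.70) ran widest. Those of Atp2b2 (0.41 to 0.73), Itpr1 (-0.53 to -0.01) and Ryr3 (-0.77 to -0.20) kept their sign without each library. Those of Atp2b1 (-0.26 to 0.05), Ryr2 (-0.23 to 0.23) and Slc8a1 (-0.26 to 0.27) ran to both sides of 0. Atp2b4 fell under the filter in 4 of the 8 fits that left out a library. The count of genes with an interval within 1 log2 unit of 0, an alternative added after the data were seen, was 0 without a variance trend and 5 with voom. No paired analysis was possible because replicate numbers follow the order of deposit and pair no libraries. With Atp2b3, Itpr3, Ryr1 and Slc8a3 left out of the families, as planned, the Slc8a1 share of exchanger reads in Day 0 cells was 93.7% against 88.8% with them, because Slc8a3 then takes no share. The other group means of shares moved by less than 1 SD.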

Other observations

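Some genes of the wider machinery were in the table but too sparse to be tested. Itpr3, the remaining IP3 receptor, had normalized counts of 0, 2, 0 and 16 in Day 0 and 0, 0, 76 and 0 in Recurring cells. Slc8b1, the mitochondrial sodium calcium exchanger, had 389, 4, 0 and 3 in Day 0 and 0, 0, 10 and 0 in Recurring cells, so that Day 0 replicate 1 held nearly all of it. The store-operated channel subunit Orai3 and the exchanger Slc24a4 were each led by Day 0 replicate 2, at 151 and 204, and did not exceed 21 in any other library.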
